A study of Mus musculus with 24 samples.

Results

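The regions described here were called as accessible chromatin in mouse embryonic stem cells in 2i and at none of the 11 later time points of a cardiac differentiation. They were chosen by presence and absence alone. All peaks of the 12 peak lists were merged. A region was taken if the 2i list held it and no other list overlapped it by even 1 bp or touched its end. There were 7941 such 2i-only regions, 6.17% of the 128679 merged regions and 19.4% of the 40834 regions called at 2i. Ranges in parentheses after shares are Wilson 95% intervals and cover counting error only. Since the choice used the calls themselves, the absence from the other lists is a description and was not tested.

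Accessibility was measured by ATAC-seq, in which a transposase cuts and tags DNA that is not wrapped tightly by nucleosomes. The samples were 24 libraries of A2lox.cre, an established mouse embryonic stem cell line built for inducible expression from an inserted cassette, with 2 biological replicates at the 2i stage and at days 0, 1, 2, 3, 4, 5, 6, 7, 8, 10 and 15 of differentiation, the last being the cardiomyocyte stage. Days 0 to 15 differed by time point only. The 2i group is labelled as stem cells in 2i, without a day, so it differs from the others in culture condition too. The labels name no inducer, no composition of the 2i medium and no purification of cells. All samples come from 1 line, and a culture at a given day is a mixture whose makeup the labels do not give, so a region open in few cells and one open weakly in all cells cannot be told apart. Only 1 peak list per time point was analysed, named by the labels of both replicates, so there is no spread between replicates, no test between time points is possible, and every value below belongs to 1 list.

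The 2i medium holds a pair of inhibitors, one of the kinase MEK, which transmits FGF signals to ERK, and one of GSK3, which marks beta-catenin for destruction. Stem cells kept in it resemble the naive epiblast of the embryo before implantation: they express Zfp42, Esrrb, Klf4 and Tfcp2l1 together with Pou5f1, Sox2 and Nanog, and their DNA carries little methylation. When the inhibitors are withdrawn, cells pass through a formative state, marked by Otx2 and Fgf5, before they respond to signals for mesoderm. Distal accessible regions are commonly enhancers, and promoters rich in CpG are commonly accessible in every cell type.

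Most 2i-only regions were far from promoters, but 122 of 32619 annotated promoter windows overlapped one, which is 0.374% of the windows. Each window holds 250 bases before and 50 bases after a transcript start in RefSeq. The 250 bases before the start are shown for the 4 protein-coding genes and the 1 long noncoding RNA with the highest fold enrichment at 2i, among starts at the outer end of a gene, with no other gene over the 250 bases and at least 150 window bases inside the region. Those of the stem cell genes Klf2 and Utf1, whose promoters were called in all 12 lists, are shown for contrast. Every sequence is from RefSeq, build GRCm38.p6, 5′ to 3′ on the strand of the gene, and capitals mark each CpG, the dinucleotide at which DNA is methylated. Each is named by the region its window overlaps. All 250 bases lie in the region for Ceacam13, B3galt5, Gm28548 and Klf2, and 211 for Utf1, 190 for Krtap13 and 103 for Gstm3, whose remaining bases extend beyond it.
Gstm3, 2i-only region (chr3:107969175-107969424, minus strand): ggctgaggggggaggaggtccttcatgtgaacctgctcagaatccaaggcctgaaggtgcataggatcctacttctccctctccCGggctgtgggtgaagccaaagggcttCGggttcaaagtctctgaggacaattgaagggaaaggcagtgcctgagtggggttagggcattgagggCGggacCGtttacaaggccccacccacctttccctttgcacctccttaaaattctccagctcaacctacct
Krtap13, 2i-only region (chr16:88751629-88751878, minus strand): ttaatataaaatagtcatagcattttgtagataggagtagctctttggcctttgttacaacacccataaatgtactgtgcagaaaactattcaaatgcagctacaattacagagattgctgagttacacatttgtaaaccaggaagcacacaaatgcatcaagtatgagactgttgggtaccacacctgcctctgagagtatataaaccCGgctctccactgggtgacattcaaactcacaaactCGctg
Ceacam13, 2i-only region (chr7:18009639-18009888, plus strand): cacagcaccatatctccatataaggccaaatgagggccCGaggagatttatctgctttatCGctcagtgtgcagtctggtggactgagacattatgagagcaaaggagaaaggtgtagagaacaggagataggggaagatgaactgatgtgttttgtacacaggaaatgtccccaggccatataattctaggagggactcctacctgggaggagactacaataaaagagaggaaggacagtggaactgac
B3galt5, 2i-only region (chr16:96235551-96235800, plus strand): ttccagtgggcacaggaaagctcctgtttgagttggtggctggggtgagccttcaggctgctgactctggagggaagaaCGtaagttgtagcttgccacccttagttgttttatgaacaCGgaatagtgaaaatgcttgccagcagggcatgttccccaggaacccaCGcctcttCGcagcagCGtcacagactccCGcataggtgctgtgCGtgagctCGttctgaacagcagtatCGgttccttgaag
Gm28548, a long noncoding RNA, 2i-only region (chr9:104361581-104361830, plus strand): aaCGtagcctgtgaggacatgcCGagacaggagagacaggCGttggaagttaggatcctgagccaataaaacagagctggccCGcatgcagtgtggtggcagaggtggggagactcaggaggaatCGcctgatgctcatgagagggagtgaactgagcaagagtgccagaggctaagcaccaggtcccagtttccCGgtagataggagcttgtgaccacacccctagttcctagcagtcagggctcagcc
Klf2, region of all 12 lists (chr8:72318812-72319061, plus strand): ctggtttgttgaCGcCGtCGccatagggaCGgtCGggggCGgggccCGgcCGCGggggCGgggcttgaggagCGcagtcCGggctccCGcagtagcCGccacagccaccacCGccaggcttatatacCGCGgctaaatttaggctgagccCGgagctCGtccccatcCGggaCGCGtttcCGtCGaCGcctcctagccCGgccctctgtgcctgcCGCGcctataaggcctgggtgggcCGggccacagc
Utf1, region of all 12 lists (chr7:139943606-139943855, plus strand): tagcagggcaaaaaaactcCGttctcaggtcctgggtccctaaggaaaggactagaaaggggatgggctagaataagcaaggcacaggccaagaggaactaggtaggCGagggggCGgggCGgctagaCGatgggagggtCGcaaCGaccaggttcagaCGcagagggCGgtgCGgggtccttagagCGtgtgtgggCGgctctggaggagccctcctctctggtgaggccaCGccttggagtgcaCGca

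The 2i-only promoters shown had few CpGs and those called throughout had many. Gstm3, a glutathione transferase gene, had 4 CpGs in the 250 bases. The keratin-associated protein gene Krtap13 and the cell adhesion gene Ceacam13 had 2 each. B3galt5, which encodes a galactosyltransferase that builds embryonic glycan antigens, had 9, and Gm28548 had 6. Klf2, a transcription factor of the naive network, had 29, and Utf1, a chromatin protein of undifferentiated stem cells, had 14. The fold enrichments of these regions at 2i were 5.59 for Gstm3, 4.85 for Krtap13, 4.50 for Ceacam13, 4.48 for B3galt5 and 8.89 for Gm28548, against 6.68 for Klf2 and 2.96 for Utf1. Fold enrichment is the ratio of reads stacked over a peak's summit to the local background, as the authors' peak caller gave it, and a region takes the value of its highest peak. Strength at 2i therefore did not separate the promoters shown: that of Utf1, called in all lists, was the lowest.

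The same held over all 122 windows, which belong to 116 genes and overlap 114 of the 2i-only regions. The overlap could be small: 87 windows had at least 150 bases in the region, also with a median of 4 CpGs. The 122 windows had a median of 4 CpGs per 300-base window, with a middle 50% of 3 to 6 and a GC content of 49.2%. In the 11050 windows of regions called in all 12 lists the median was 24 CpGs, with a middle 50% of 17 to 32 and a GC content of 63.3%. At least 15 CpGs were found in 0.820% (0.145 to 4.50%) of the 2i-only windows and in 81.9% (81.2 to 82.6%) of those called throughout. Low CpG content was not confined to 2i: the median was 5 in the 62 windows called at 2i and D0 only, 5 in the 769 windows called in a single list other than 2i, and 3 in the 15350 windows with no region. Protein-coding genes made up 35.2% (27.3 to 44.1%) of the 2i-only windows and 88.4% (87.8 to 89.0%) of those called throughout, the rest being long noncoding RNAs. The share was also low in the windows of 2i and D0 only (38.7%), of no region (45.9%) and of a single other list (52%). The single 2i-only window with 15 or more CpGs was that of the long noncoding RNA Gm34649, with 19.

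**Figure D1:**
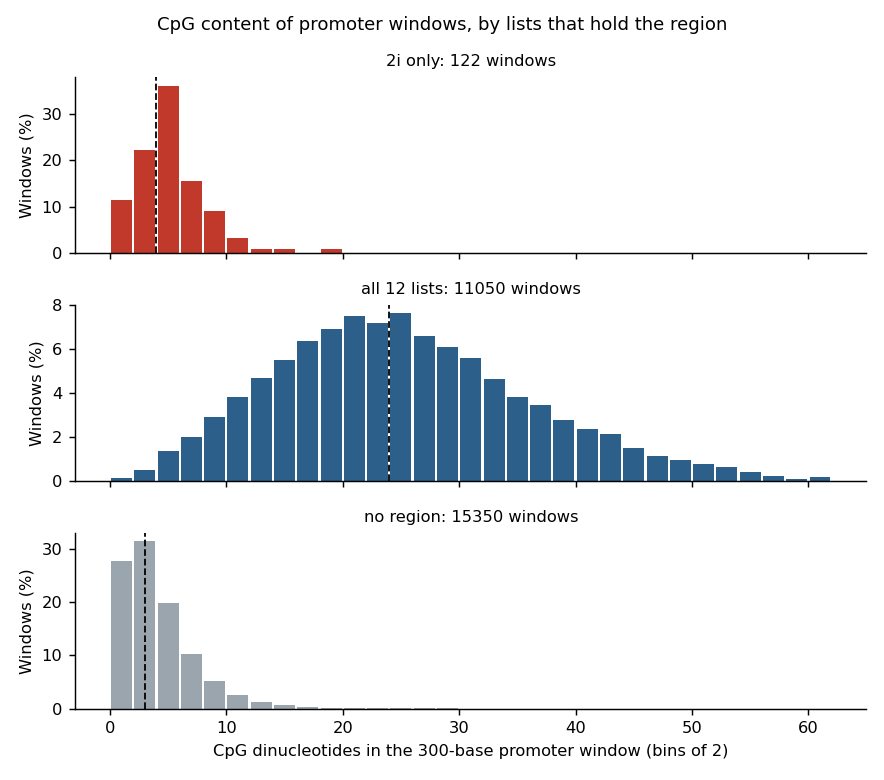
The horizontal axis is the number of CpG dinucleotides in a 300-base promoter window, in bins of 2, and the vertical axis is the share of windows in percent, for windows overlapping 2i-only regions, regions of all 12 lists and no region, with dashed lines at the medians of 4, 24 and 3. The 2i-only windows lie at the low end, where the windows with no region also lie, and not in the broad peak of the windows called throughout.

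Of the 191 genes in the gene lists used below that have a promoter window, 1 had a window in a 2i-only region. It was Pim1, a kinase gene that STAT3 activates, at its inner annotated start (region chr17:29492768-29493165, fold enrichment 3.08, 5 CpGs in the window). Short motifs of transcription factors were searched in the windows on both strands, with N for any base. A match describes letters and not binding, and it may lie outside the region that the window overlaps. The motif of SOX factors, CCATTGT, was in 5.74% (2.81 to 11.4%) of the 2i-only windows, 1.65% of those called throughout and 3.68% of all windows. That of TEAD factors, ACATTCC, was in 8.20% (4.51 to 14.4%), 2.23% and 3.87%. That of AP-1, TGANTCA, was in 11.5% (6.96 to 18.3%), 3.31% and 7.85%, and that of GATA factors, AGATAA, was in 13.9% (8.89 to 21.2%), 4.54% and 11.2%.

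That of TCF and LEF factors, ATCAAAG, was as frequent as that of SOX factors, at 5.74% (2.81 to 11.4%) of the 2i-only windows. It was in 2.18% of those called throughout and 3.76% of all windows. The remaining motifs were near the share of all windows or rested on few matches. That of KLF factors, CCNCACCC, was in 16.4% (10.9 to 24.0%) of the 2i-only windows and 16.7% of all windows. It was in 11.9% of the windows with no region and 35.5% (24.7 to 47.9%) of the 62 windows of 2i and D0 only. That of TFCP2L1 and GRHL, AACNNGTT, was in 4.10% of the 2i-only windows and 4.18% of all windows. The POU octamer, ATGCAAAT, was in 2 of 122 windows (1.64%, against 1.75% of all windows), that of ESRRB, TCAAGGTCA, also in 2 (1.64%, against 0.426%), and that of STAT factors, TTCCNGGAA, in 1 (0.820%, against 1.16%). The windows with no region, which are as poor in CpG, held the SOX, TEAD, AP-1 and GATA motifs in 5.45%, 4.78%, 11.1% and 16.5%. They held the TCF and LEF motif in 5.16%. Each of these shares lies inside the interval of the 2i-only windows.

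At 2i the regions were weak. Their median fold enrichment was 4.24, with 80% of them between 3.27 and 5.98 and a highest value of 15.1. The other 32893 regions called at 2i had a median of 5.61, and the 11089 called in all 12 lists had 7.09. The number of reads stacked over the summit, recovered from the fold enrichment and p-value of each peak, had a median of 10 in the 2i-only regions, a lowest value of 7 and a highest of 49. It was 27 in the regions called throughout. The 2i peaks were 391 bp wide at the median, against 849 bp for those called throughout, and 1.75% of the regions had more than 1 summit at 2i, against 24.5%. A −log10 q of at least 5 was reached by 32.9%, which is 2615 regions, and 15.1% had a −log10 q under 2, close to the lowest value in the list, 1.31. The number of 2i-only regions was 4890 when all lists were limited to that threshold of 5, and 4425 with the same number of peaks from every list. Both settings also drop weak peaks of the other lists, so a region that another list called weakly can count as 2i-only. The 4890, more than the 2615, are therefore not all among the regions described here.

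Weak peaks at 2i were more often 2i-only. Of the tenth of 2i regions with the highest fold enrichment, 8.81 or more, 1.32% were 2i-only, and of the tenth with the lowest, up to 3.49, 41.7% were. The number of lists that held a 2i region was most often lowest or highest: 7941 regions were in the 2i list alone, 941 were in 8 lists and 11089 in all 12. Of the 5146 regions shared with exactly 1 other list, the other was D0 in 3044 (59.2%), D4 in 604 and D1 in 524, and D6 in 7. The 5146 had a median fold enrichment at 2i of 4.66, above that of the 2i-only regions and below that of the regions in 3 lists, 5.08.

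**Figure D2:**
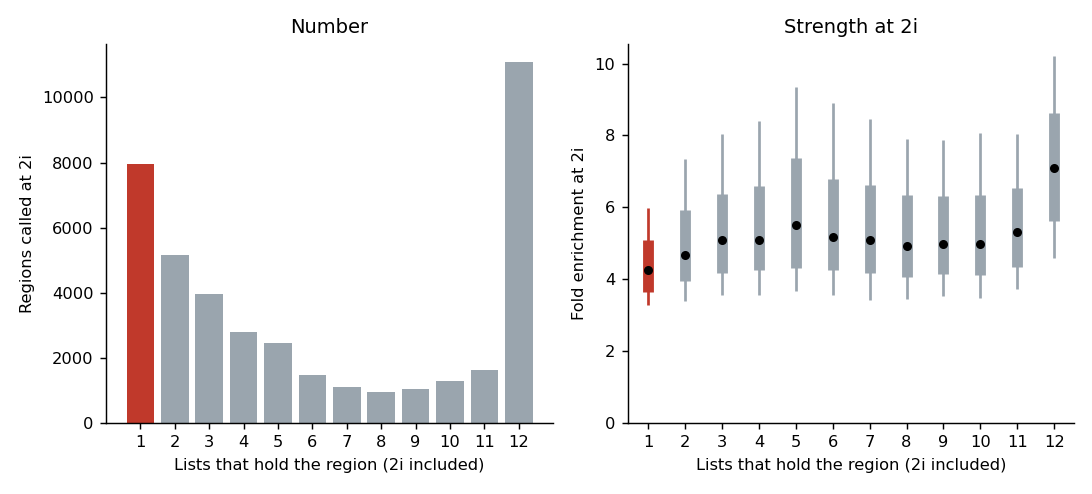
Left, the number of regions called at 2i (vertical axis) by the number of lists that hold them (horizontal axis), and right, their fold enrichment at 2i, with points at medians, thick bars over the middle 50% and thin bars from the 10th to the 90th percentile of regions. The 7941 regions of the 2i list alone, in red, have the lowest median, 4.24, and the 11089 of all 12 lists the highest, 7.09.

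The 2i list had the lowest background coverage. Coverage here is the number of reads stacked at an average position, recovered from the same values, and it stands in for read depth, which is not given in the sources used here. It was 1.36 at 2i, 1.49 at D0, 1.62 at D4 and between 1.68 and 2.84 in the other 9 lists, with the highest value at D7. The share of a list's regions called in no other list was 19.4% at 2i, 31.9% at D4, 16.3% at D7, 10.8% at D0 and between 4.46 and 10.4% in the other 8 lists, so 2i ranked second. On the list-wide background the lowest fold called was 3.39 at 2i and between 2.84 and 3.35 in the other lists. It did not follow coverage in every list: it was 3.04 at D4 and 3.20 at D15, where coverage was higher. Of the 2i-only regions 87.8% had a fold enrichment at 2i above 3.35, the highest limit of the other lists, which does not give their fold in those lists. The limit at 2i, 3.39, is itself higher, so this share was partly fixed by the calling at 2i. Over the 12 lists, the share called in no other list had a Spearman rank correlation of -0.50 with background coverage. With the number of peaks it was 0.63. The coverage of a 2i-only region in the other lists was not analysed here, so absence here means no call, and the part of coverage in the number of 2i-only regions was not tested.

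**Figure D3:**
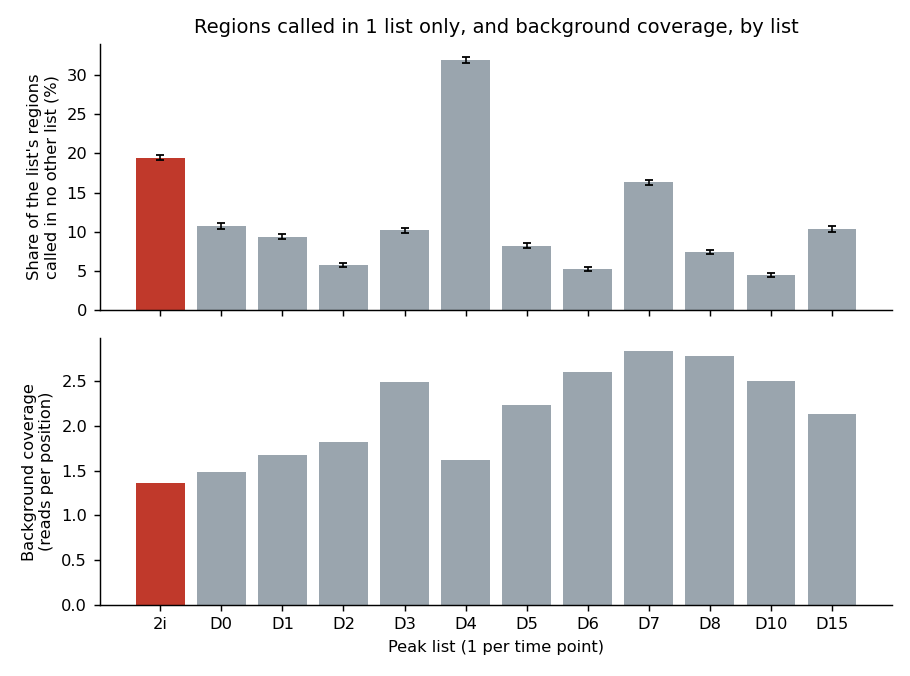
Above, the share of each list's regions called in no other list, in percent with Wilson 95% intervals, and below, the background coverage in reads per position, for the 12 peak lists, with 2i in red. The 2i list has the lowest coverage, 1.36, and the second highest share, 19.4%, after D4 with 31.9%.

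The rule admits regions that barely miss a neighbour. The nearest peak of another list was 6073 bp away at the median, within 10 kb for 67.7% of the regions, within 1 kb for 920 of them (11.6%), and within 100 bp for 125 (1.57%). Just inside the rule were chr15:86283022-86283832, chr17:74869884-74870225 and chr2:180084067-180084535, each 1 bp from a peak of D4, D7 and D7, with fold enrichments at 2i of 4.95, 4.36 and 3.23. Just outside were chr14:118638375-118639134 and chr7:5128234-5128955, each overlapped by 1 bp by a peak of D0 and D2, with 3.29 and 2.98, and chr7:82794126-82794954, overlapped by 2 bp by a peak of D5, with 4.31. The values on the 2 sides of the limit overlap.

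Of the 10 strongest 2i-only regions, 2 lay inside genes, 3 far from any protein-coding gene and the others beside a gene, several of them in clusters of related genes. The highest fold enrichment, 15.1 with 37 reads at the summit, was at chr8:20394573-20394930, 31.6 kb right of Gm15319 among pseudogenes. The second, 13.2, was at chr4:144335546-144336031, 2.32 kb right of Pramel30, in a cluster of Pramel genes, a family expressed in germ cells and early embryos. The third, 12.4, was inside Ephb1, which encodes an ephrin receptor (chr9:102205430-102205938), 149.0 kb from the nearest gene end. That of 11.1 was 2.61 kb right of Klrb1a, a receptor gene of natural killer cells (chr6:128625344-128625739), and that of 11 at chr7:7005461-7005873 was 2.58 kb right of Aurkc, the aurora kinase of germ cells, near the imprinted genes Usp29 and Zim3. Of the other 5 of the first 10, 3 had no protein-coding gene within 50 kb, on chromosomes 18, 10 and 6, with 11.4, 11 and 10.9, and 2 were inside Vps13c (10.9) and 20.5 kb right of Aadacl4fm5 (10.8). Reads from near-identical copies, as in the Pramel cluster, could be placed at more than 1 copy, and how the authors treated them is not given in the sources used here.

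Relative to genes, 2i-only regions were rarely at gene ends and otherwise placed much like merged regions in general. Their centres were inside a protein-coding gene for 44.2% (43.1 to 45.3%), outside but within 50 kb for 28.5%, and over 50 kb away for 27.3% (26.3 to 28.3%). Only 220, 2.77% (2.43 to 3.15%), lay within 1 kb of an annotated gene end, against 76.4% (75.6 to 77.2%) of regions called in all 12 lists. Over all 128679 regions the shares were 48.2% inside genes, 25.9% outside but at most 50 kb away, 25.9% (25.7 to 26.2%) farther away and 11.9% (11.8 to 12.1%) at gene ends. The gene table has gene bounds without exons, so exon or intron is not given. Regions called at 2i and D0 only were placed alike, with 2.53% (2.03 to 3.15%) at gene ends and 29.5% (27.9 to 31.2%) over 50 kb away. Regions called in a single other list were also rarely at gene ends, from 1.71% at D1 to 7.08% at D3. They differed more in their distance from genes: 43.8% (42.2 to 45.4%) of D0-only regions, 59.1% (57.2 to 61%) of D1-only and 46.5% (45.7 to 47.2%) of D4-only regions were over 50 kb from any gene, all above the 2i-only share, and 13.5% (11.8 to 15.3%) of D6-only and 21.5% (20 to 23.2%) of D15-only regions, both below it.

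**Figure D4:**
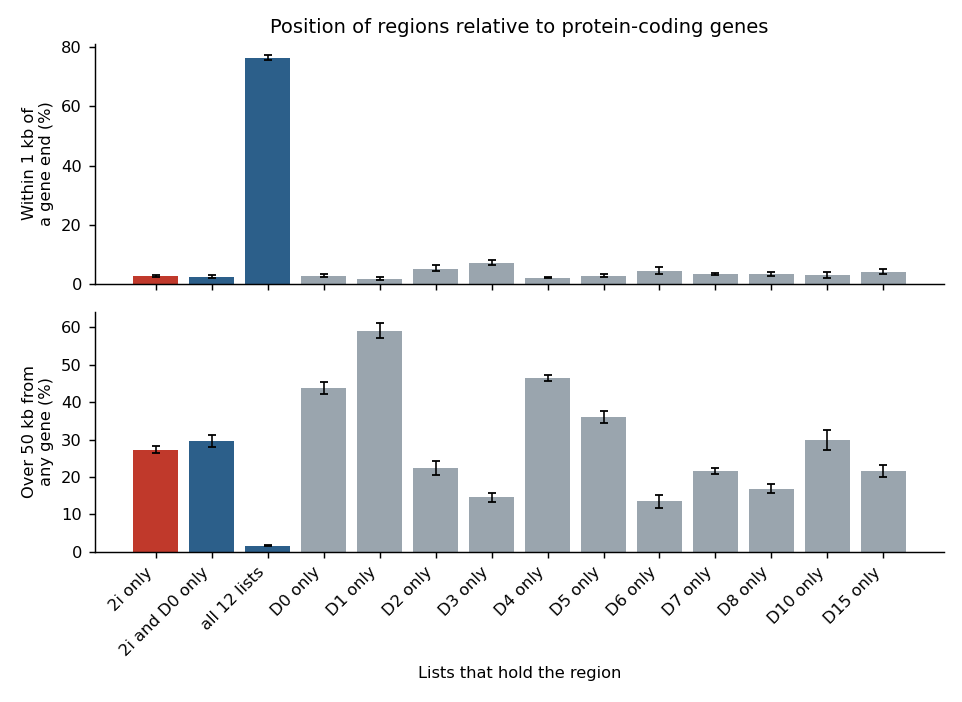
Share of regions with a centre at most 1 kb from either end of a protein-coding gene (above) or more than 50 kb from all such genes (below), in percent with Wilson 95% intervals, by the lists that hold the region. The 2i-only regions, in red, have 2.77% and 27.3%, close to the regions of 2i and D0 only, and the regions of all 12 lists have 76.4% and 1.71%.

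Among the 220 regions at gene ends, that of Bub1b, a kinase of the spindle checkpoint, had the highest fold enrichment, 8.61, at chr2:118641013-118641478, 0.346 kb inside an end. AU040320 had 8.00 (chr4:126868467-126869091), Pramel11 7.96 (chr4:143894412-143895083), the heparanase gene Hpse 7.87 (chr5:100679995-100680755) and the guidance cue gene Sema3d 7.74 (chr5:12589429-12589926). Prss48, Commd2, the checkpoint clamp gene Rad1, the replication factor gene Gins4 and the ubiquitin-conjugating enzyme gene Ube2l6 had 7.70, 7.64, 7.16, 6.95 and 6.86. These ends include ends of transcripts as well as starts.

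2i-only regions lay next to each other more often than other 2i regions lay next to one. The nearest other 2i region was itself 2i-only for 24.5% (23.6 to 25.5%) of them, against 18.8% (18.4 to 19.3%) of the remaining 2i regions. Runs of at least 2 neighbouring 2i regions that were all 2i-only numbered 1371 and held 3238 of the 7941 regions. There were 29 runs of 5 or more. No expected number of runs was worked out, and 19.4% of all 2i regions were 2i-only. The longest run had 7, over 156.7 kb inside Smyd3, which encodes a lysine methyltransferase, and a run of 6 spanned 147.4 kb inside Slc39a11. Another run of 6 was loose, over 1619 kb of chromosome 10, with 2 of its regions assigned to Tafa2. With the same number of peaks taken from every list, the share with a 2i-only nearest neighbour was 20%, where 15.9% of all 2i regions were 2i-only.

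Long genes held the most. Of the 2i regions assigned to a protein-coding gene, by a body that holds the centre or the nearest one within 50 kb, 17.6% were 2i-only, and 3854 of 21631 genes (17.8%) had at least 1. Auts2, a regulator of neuronal development with a length of 1106 kb, had 18 of its 32 2i regions 2i-only, with fold enrichments from 3.19 to 5.68. Pard3, a cell polarity gene of 548.9 kb, also had 18 of 32, from 2.89 to 5.51. The zinc transporter gene Slc39a11, of 405.4 kb, had 15 of 23, from 2.71 to 9.88, and none of the other 8 was shared with D0 alone. Galntl6 had 11 of 20, the phosphodiesterase gene Pde4d 10 of 41 and Tenm3, a synaptic adhesion gene, 10 of 27. Mctp1 had 9 of 19, Fhit 9 of 14, Ptprg 9 of 15, and Wdfy3, which is shorter at 239.3 kb, had 9 of 17. For Auts2, Pard3, Slc39a11, Fhit and Ptprg the shares were 56.2, 56.2, 65.2, 64.3 and 60%, and their Wilson intervals start at 35.7% or above, but the genes were chosen by their counts and this is a description.

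The densest 1 Mb windows were mostly those genes. The window from 113 to 114 Mb of chromosome 11 held 20 among its 36 2i regions, 15 of the 20 at Slc39a11. That of Auts2 on chromosome 5 held 18 among 30, with 12 at Auts2, and that of Pard3 on chromosome 8 held 18 among 40. Over all 2i regions the 2i-only share was 19.4%. The median number was 3 in windows that had any. The other 2 windows, with 16 each among 42 and 41 2i regions, were spread over several genes on chromosome 1, with 5 at Niban1, and around Tet2 on chromosome 3. Between chromosomes, the 2i-only share of 2i regions went from 14.1% (11.9 to 16.7%) on chromosome 19 to 22.8% (21.4 to 24.3%) on chromosome 1. Chromosome X held 3.10% (2.74 to 3.50%) of the 2i-only regions and 2.94% (2.76 to 3.12%) of the other 2i regions, intervals that overlap. Among regions called in a single other list the X share went from 0.137% (0.0377 to 0.499%) at D6 to 2.34% (1.82 to 3.01%) at D1. Over all regions of a list it was 2.97% at 2i and between 2.08% at D8 and 2.79% at D0.

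Gene lists were then examined by role, each with the number of its 2i regions that were 2i-only, beside 17.6% over all protein-coding genes. Naive pluripotency genes had 22 of 96 (22.9%, 15.6 to 32.3%), at 14 of 25 genes, with a median of 1 per gene against 0 over all genes. They also held more 2i regions per gene, 96 over 25 genes against 32711 over 21631. The per-gene values are therefore not on a like basis. Each of the 25 had at least 1 region called at 2i. Formative and primed pluripotency genes had 2 of 37 (5.41%, 1.5 to 17.7%), at 2 of 17 genes. The interval of the naive list holds 17.6%, and the upper bound of the formative list is just above it. With equal numbers of peaks from every list the naive genes had 6 regions, 10.2% of their 2i regions against 14.4% of all 2i regions assigned to a gene, so the naive share was above the background by the main rule and below it with lists of equal length. With a −log10 q of 5 or more in every list they had 10, or 18.5%, against 16.8%. Under both settings, here and for the lists below, regions were chosen anew and need not be among those of the main rule.

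The naive regions were spread thinly. Zfp42, the gene of the stem cell marker Rex1, had the most, 4 of its 9 2i regions, at 43.3, 15.3 and 8.71 kb left and 47.8 kb right of the gene, with fold enrichments of 4.24, 3.39, 2.55 and 3.22. Esrrb, an orphan nuclear receptor that holds cells in the naive state, had 3 of 10, all inside the gene, and the strongest (chr12:86504374-86504781) had a fold enrichment of 4.01 with 38 reads at the summit. Fbxo15, a target of Pou5f1 and Sox2, had 2 of 6, one of them the strongest of the list, 7.05, inside the gene. Klf5 had 2 of 6, at 19.9 kb left and 35.1 kb right, and the nuclear receptor gene Nr5a2 had 2 of 3, at 17.6 and 43.3 kb right. Tfcp2l1, a transcription factor of the network, had 1 of 6, inside the gene (chr1:118663167-118663469), with 5.86, and Tdh, the threonine dehydrogenase that mouse stem cells depend on, had 1 of 3 with 4.71. Dppa2, Dppa3, Dppa4, Nr0b1, Klf4 and Prdm14 had 1 each, with fold enrichments from 3.55 at Prdm14 to 4.23 at Dppa2. Pou5f1, Sox2, Nanog, Klf2, Tbx3, Fgf4, Utf1, Gbx2, Sall4, Tcl1 and Dppa5a had none. Both formative regions were outside their genes, 11.7 kb right of Foxd3 (4.20) and 31.2 kb left of Otx2 (4.19).

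Genes of the pathways that the 2i inhibitors act on had intervals that hold the background. FGF and ERK pathway genes had 11 of 70 (15.7%, 9.01 to 26.0%), at 5 of 24 genes. The phosphatase gene Dusp6, which ERK induces and which acts back on it, had 3 of 5, the strongest 25.9 kb right of it (chr10:99293126-99293573, fold enrichment 8.77), Myc had 3 of 8, the inhibitor genes Spry1 and Spry4 had 2 of 3 each, and Spry2 had 1 of 9. The other 19 genes had none, both the ligand, receptor and kinase genes and the other targets and inhibitors of the pathway, Dusp4, Egr1, Etv1, Etv4, Etv5, Fos, Spred1 and Spred2. With a −log10 q of 5 or more the share was 8.51%, against 16.8% over all genes. Wnt and GSK3 pathway genes had 15 of 66 (22.7%, 14.3 to 34.2%), at 7 of 22 genes. Tcf7l1, the repressor of Wnt targets in stem cells, had 5 of 11, from 3.17 to 4.48. Gsk3b, the kinase itself, had 4 of 6, all inside the gene, from 3.39 to 5.65. These genes are long, 162.7 and 157.1 kb, against a median of 17.3 kb over all protein-coding genes. The feedback inhibitor gene Axin2 had 2 of 9, and Ctnnb1, Lgr5, Lrp5 and Tcf7l2 had 1 each. LIF and STAT3 pathway genes had 6 of 45 (13.3%, 6.26 to 26.2%), 1 each at 6 genes, among them Lifr, Socs2, Bcl3 and Pim1, and 8.82% with equal numbers of peaks.

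**Figure D5:**
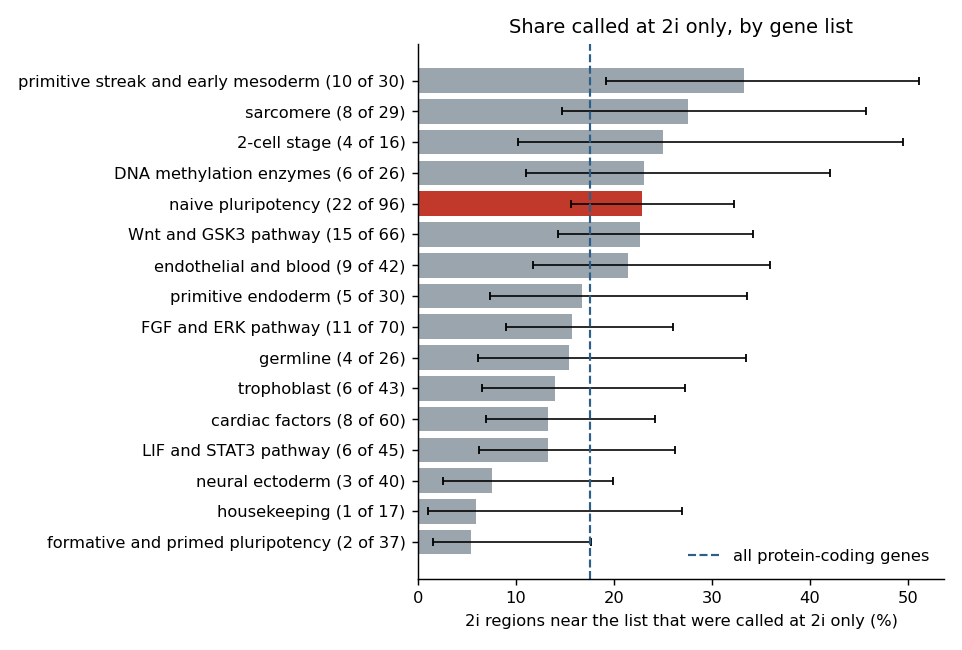
Share of the 2i regions near each gene list that were called at 2i only, in percent with Wilson 95% intervals, with the counts beside each name and a dashed line at 17.6%, the share over all protein-coding genes. The naive pluripotency list is in red. The interval of the primitive streak and early mesoderm list starts above the line, at 19.2%, and those of the other lists hold it. The intervals are not corrected for the number of lists.

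DNA methylation enzymes had 6 of 26 (23.1%, 11 to 42.1%), an interval that holds the 17.6% over all genes. All 6 were among the 14 2i regions of Tet2, a dioxygenase that oxidises methyl groups on DNA. The other 8 genes, the related Tet1 and Tet3, Tdg, Uhrf1 and the methyltransferase genes, had none of the other 12. The Tet2 regions were 25.5 kb left of the gene, inside it at 2 places, and 5.04, 6.94 and 12 kb right of it, with fold enrichments from 2.94 to 5.24 and 8 to 17 reads at the summit. The strongest was inside the gene at chr3:133506241-133506799. Genes of other early lineages had few. The 2-cell stage genes had 4 of 16 (25%, 10.2 to 49.5%), 1 each at Arg2, Tdpoz3, Zfp352 and Zscan4d. Germline genes had 4 of 26 (15.4%, 6.15 to 33.5%), with 2 at Prdm1, which specifies primordial germ cells, and 1 each at Piwil2 and Stra8. Primitive endoderm genes had 5 of 30 (16.7%, 7.34 to 33.6%), all at the laminin genes Lama1, with 3, and Lamb1, with 2. The primitive endoderm list had none with a −log10 q of 5 or more in every list, and 1 (6.67%) with equal numbers of peaks. Trophoblast genes had 6 of 43 (14.0%, 6.56 to 27.3%), with 2 at Gata2 and 1 each at Esx1, Id2, Tead4 and Tfap2c. A −log10 q of 5 or more in every list also admits regions that another list called weakly. Under it the trophoblast share was 24% and the germline share 29.4%, on 6 and 5 regions, both above the 16.8% over all genes. Not all of these were main-rule regions. Of those, only the ones at Tead4, Id2 and Stra8 and the strongest at Prdm1 reached the limit. With regions assigned within 20 kb the trophoblast share was 5.56%, on 2 regions, below the 16.8% over all genes there.

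Lists of later cell types were also represented. Primitive streak and early mesoderm genes had 10 of 30 (33.3%, 19.2 to 51.2%), at 7 of 18 genes. Gsc, a homeobox gene of the organiser, had 3, the strongest 34.8 kb right of it (chr12:104507797-104508186, 5.65), Msgn1, a factor of presomitic mesoderm, had 2, and Bmp4, Kdr, Snai1, Wnt3 and Wnt3a had 1 each. The Bmp4 region, 1.23 kb right of the gene (chr14:46391741-46392056), had the highest fold enrichment of the list, 6.11. The share was 33.3% with equal numbers of peaks and 30.8% with a −log10 q of 5 or more, on 5 and 4 regions. The main interval starts above 17.6%, but it is 1 of 16 and is not corrected for their number. It also counts regions at the same gene as independent. Sarcomere genes had 8 of 29 (27.6%, 14.7 to 45.7%), with 2 each at Myom1 and Tnni1, and 13.3% under the same q threshold. Cardiac factor genes had 8 of 60 (13.3%, 6.91 to 24.2%), with 3 at Meis2, 2 each at Mef2c and Hopx, and 1 at Tbx20 with 7.79. Under the same q threshold, set in every list, the cardiac factor share was 25.8%, on 8 regions, against 16.8% over all genes. With equal numbers of peaks it was 21.2%, against 14.4%. It was thus below the background by the main rule and above it under both. The 8 under the threshold were not all main-rule regions. Of those, only that at Tbx20 and the strongest at Meis2, Mef2c and Hopx reached it.

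Endothelial and blood genes had 9 of 42 (21.4%, 11.7 to 35.9%), 4 of them at Cdh5, which encodes VE-cadherin, and the strongest of these, 16.0 kb left of the gene, had 7.37. Neural ectoderm genes had 3 of 40 (7.50%, 2.58 to 19.9%), at Nkx2-2, Olig2 and Pax3, or 12% with a −log10 q of 5 or more, and housekeeping genes 1 of 17 (5.88%, 1.05 to 27.0%), 10.6 kb left of Pgk1. Over the 16 lists the share went from 5.41 to 33.3%, on 1 to 22 regions each, and several lists share genes. Assignment by distance does not show which gene a region acts on.

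Of 1005 microRNA hairpins in RefSeq, 8 (0.796%) lay within 2 kb of a 2i-only region and 200 (19.9%) within 2 kb of any region called at 2i. One 2i-only region, chr1:34432989-34433329 with a fold enrichment of 3.92, held the hairpin of Mir5103. A pair of regions on chromosome X lay 345 and 1181 bp from the hairpin of Mir672, and others lay within 2 kb of Mir205, Mir682, Mir5135, Mir1191b, Mir680-2 and Gm51277.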

How the data were processed

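The data were 12 deposited peak lists from ATAC-seq libraries of 24 samples, 1 list per time point. Per the submitters' processing notes, the build was mm10 and the tools named were MACS2 2.1.1, Bowtie2 2.3.2, SAMtools 1.5, cutadapt 2.10 and Picard, in no stated order. Their settings, the read depth, any shift for the transposase offset, and how 2 replicates became 1 list were not stated by these sources. Each deposited peak carries a fold enrichment (a linear ratio), a −log10 p and a −log10 q, a score that was not used beyond checking the file, and a summit offset, all as the authors' caller wrote them.

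Peaks were merged where they overlapped by at least 1 bp or touched end to end, tested on simulated data against bedtools 2.31.1. Genes came from a RefSeq table of GRCm38.p6 (21631 protein-coding genes) and promoter windows from RefSeq (32619, of 26794 genes). Of the 261 listed genes, 191 have a promoter window. Summit reads and background coverage were recovered assuming that fold is (reads + 1) / (background + 1) and p a Poisson tail, which held within 0.02 in −log10 p for 92.3% of D3 peaks and 99.6 to 100.0% elsewhere. Python 3.11.15, pandas 2.3.3 and scipy 1.17.1 were used. No test was made, since each time point has 1 list. The regions and gene lists were chosen with earlier results of these data known. The promoter windows, motifs in them, neighbours and recovered reads were added after the data were seen, since the planned motif count in the regions needs a genome sequence, not used here.

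Named items were the 10 regions with the highest fold enrichment, the 10 highest at gene ends, the 5 densest 1 Mb windows, the 10 genes with most regions, up to 3 genes of each list with most, the naive pluripotency genes (1 is not reported here by name), and examples at the limit of the rule. Smyd3, Gm34649, the other listed genes and the microRNAs were named after their values were seen.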

Additional observations from a re-analysis of the deposited data

How the results depend on the processing

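The number of 2i-only regions, 7941, was 4890 with a −log10 q of 5 or more in every list, 2615 with that limit at 2i only, and 4425 with 31324 peaks from every list. Limits on every list also drop weak peaks of the other lists, so the 4890 and the 4425 need not be among the 7941. The number was within 1.5 times, from 7420 to 9596, when peaks up to 500 bp apart were merged or when sharing required a summit within 250 bp or a 2i peak covered to at least 50%. Leaving out 1 other list at a time gave 7949 without D6 to 11039 without D0. In the same order as the first 3 settings, the median fold enrichment was 5.51, 5.51 and 5.32, as a stricter threshold sets it. The share at gene ends was 2.27% and 2.29% under the first 2 settings. With the limit at 2i only, the share inside genes was 45.5%, that over 50 kb from genes 25.3% and that on chromosome X 3.98%. With equal numbers of peaks the share over 50 kb away was 25.3% and the share with a 2i-only neighbour was 20%. The median of 4 CpGs per promoter window was 4 or 5 under each alternative run. Of the 16 gene-list shares, 4 left their interval with a −log10 q of 5 or more, 2 with equal numbers of peaks, 1 within 20 kb and 0 within 100 kb. The motif alternative in region windows was not run. No paired analysis was possible because each time point has 1 list for both replicates and no test was made.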
